A study of Gallus gallus with 5 samples.

Results

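*Zbtb16* (locus XLOC_008738, ENSGALG00000007011) and *Znf385c* (locus XLOC_009526, ENSGALG00000003403) are the 2 loci of the chick otic transcriptome described here, out of 18365 loci with read counts. They were chosen by symbol, because both had much higher RNA levels in otic-epibranchial progenitors (OEPs) at 5-6 somites (5-6ss) than in the posterior pre-placodal region (PPR) at Hamburger-Hamilton stage 6 (HH6). That contrast is therefore described below and supports nothing. RNA was sequenced from Bovans Brown chick embryos without any treatment, 1 library for each of 5 conditions: the PPR at HH6, OEPs at 5-6ss, the thickened otic placode at 8-9ss, the invaginating otic placode at 11-12ss, and a whole embryo library from 3ss. Future otic ectoderm was freed of mesoderm and endoderm and dissected where *Pax2* is known to be expressed, and placodes of many embryos were pooled in each dissected library. Since no condition has a replicate, no p-value was computed and each 95% interval covers counting error alone, with reads from the same PCR product not told apart.

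*Zbtb16*, also known as PLZF, encodes a transcription factor with a BTB/POZ domain and a row of C2H2 zinc fingers. The BTB/POZ domain lets the protein dimerize and recruit corepressors and histone deacetylases. In mice it maintains spermatogonial stem cells and patterns the limb, and in zebrafish it holds neural progenitors back from differentiation. *Znf385c* belongs to a small family of proteins with another kind of C2H2 finger, of the type found in matrin and U1 RNA-binding proteins. The otic placode, from which the whole inner ear arises, forms from OEPs, which also give rise to the epibranchial placodes.

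Total counts lay between 26858887 (OEPs) and 136916870 (PPR), a 5.10-fold range. The labelled tissues were compared with defining markers. The otic and epibranchial list, which holds 10 genes, all found, had 5 members over an RPKM of 4 in the PPR, 10 in each otic library and 6 in the whole embryo. All 4 surface ectoderm markers found were over this level in the PPR and in the whole embryo, with *Tfap2a* at 324 in the PPR and 52.2 in the whole embryo, *Krt19* at 294 and 211, *Grhl3* at 14.8 and 7.58 and *Krt18* at 60.6 and 74.5. Of 7 mesoderm markers found, 1 was over it in the PPR (*Foxc2*), 1 in OEPs, 1 at 8-9ss, 4 at 11-12ss and 6 in the whole embryo. *Foxc2* had an RPKM of 30.0 to 35.6 in the otic libraries and 62.2 in the whole embryo, and *Prrx1* 16.7 at 11-12ss and 13.4 in the whole embryo. The mesodermal gene *Tbx6* had 5 to 9 counts in the otic libraries, against 12018 in the whole embryo, *Msgn1* 0 to 4 against 2805, and the mesoderm and notochord gene *T* (brachyury) 127 to 195 against 27924.

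*Zbtb16* was read 2019 times in the PPR, 4014 times in OEPs, 11502 times at 8-9ss, 11359 times at 11-12ss and 939 times in the whole embryo. Scaled by transcript length and depth, its RPKM was 3.75, 34.9, 67.3 and 76.6 over the 4 stages from the PPR to the invaginating placode, and 4.85 in the whole embryo. The PPR and the whole embryo were thus the low libraries, with the PPR under the RPKM of 4 that the study required of an expressed gene, and each later library was well above both. Among loci with an RPKM above 0, *Zbtb16* stood at percentile 36.7 in the PPR, 72.5 in OEPs, 82.9 at 8-9ss, 85.6 at 11-12ss and 37.6 in the whole embryo.

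*Znf385c* was read 3739 times in the PPR, 4902 times in OEPs, 6233 times at 8-9ss, 5922 times at 11-12ss and 484 times in the whole embryo. Its RPKM was 31.1 in the PPR, 215 in OEPs, 188 at 8-9ss, 199 at 11-12ss and 11.3 in the whole embryo. Here the whole embryo was lowest, the PPR lay between, and the 3 otic libraries formed a plateau whose highest value was 1.21 times its lowest by normalized count (counts divided by size factors over all 5 libraries). *Znf385c* stood at percentile 76.7 of RPKM in the PPR and between 92.4 and 93.6 in the otic libraries, with 52.0 in the whole embryo. On this scale *Znf385c* was the more abundant of both genes in each library, by 8.29 times in the PPR, 6.17 times in OEPs, 2.79 times at 8-9ss, 2.60 times at 11-12ss and 2.33 times in the whole embryo.

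**Figure D1:**
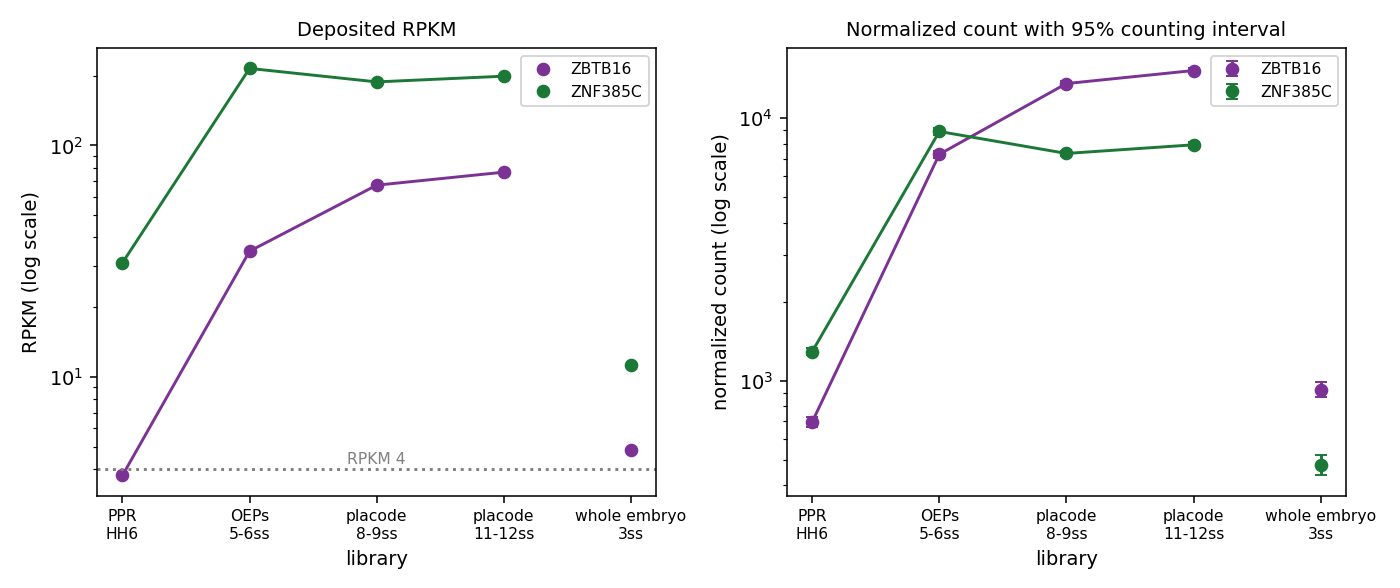
Deposited RPKM (left) and normalized count (right, size factors over all 5 libraries) of ZBTB16 and ZNF385C in each library, on log axes; bars on the right are 95% Poisson counting intervals and the dotted line marks an RPKM of 4. ZBTB16 goes on increasing to 76.6 RPKM at 11-12ss, whereas ZNF385C stays between 188 and 215 RPKM from 5-6ss onwards.

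To ask how the balance of both transcripts moved without any scaling between libraries, the share of *Zbtb16* in the summed counts of both loci was taken with its exact (Clopper-Pearson) binomial interval. It was 35.1% (33.8 to 36.3) in the PPR, 45.0% (44.0 to 46.1) in OEPs, 64.9% (64.1 to 65.6) at 8-9ss, 65.7% (65.0 to 66.4) at 11-12ss and 66.0% (63.5 to 68.4) in the whole embryo. The PPR and OEPs thus each differed from every other library by more than counting error. Transcript length, which differs between both loci and is described below, was not adjusted for in the share. The intervals of both placode libraries and the whole embryo overlapped, although the summed counts were 17735 at 8-9ss and 17281 at 11-12ss, against 1423 in the whole embryo.

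**Figure D2:**
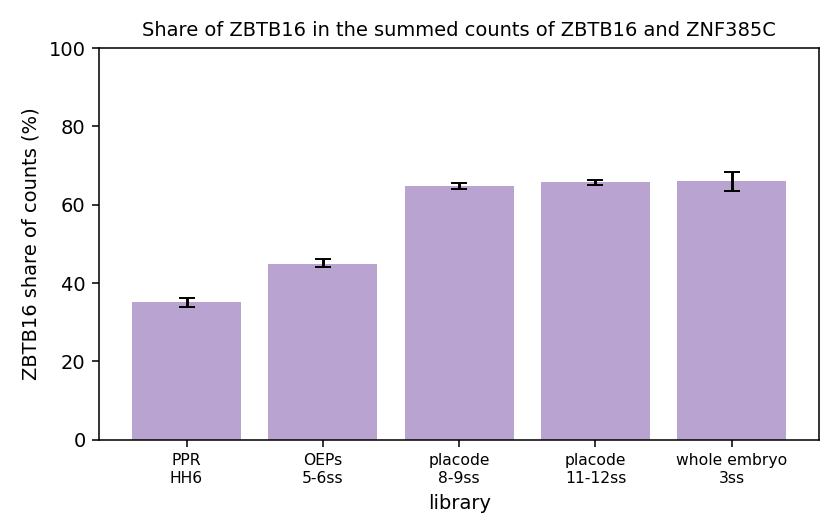
Share of ZBTB16 in the summed counts of ZBTB16 and ZNF385C (percent, from 0) in each library, with exact binomial 95% intervals. The share is 35.1% in the PPR and 45.0% in OEPs, and lies between 64.9% and 66.0% in the other 3 libraries.

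Each pair of libraries was scaled by its own median-of-ratios size factors. A locus was called higher or lower where the fold change was over 1.5 and where, in whichever library had more of it, the RPKM passed 4 and the normalized count 300, the thresholds of the study. Loci that met both expression thresholds are termed expressed in that comparison. From the PPR to OEPs, the contrast that chose the genes, *Zbtb16* was 10.4-fold higher in OEPs (95% interval 9.84 to 11.0), on normalized counts of 9172 in OEPs and 884 in the PPR. *Znf385c* was 6.85-fold higher (6.56 to 7.14), with 11201 in OEPs and 1636 in the PPR. In this contrast 18.0% of 9253 expressed loci were called higher, and *Zbtb16* ranked 164 and *Znf385c* 215 of them by fold change.

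Loci of different transcript length did not behave alike at this step. The effective length of a transcript follows from its counts, its RPKM and the depth of the library, and was 4.12 kb for *Zbtb16* and 0.848 kb for *Znf385c*. *Zbtb16* fell in the 9th of 10 length classes, whose median log2 fold change was -0.25 and of whose loci 7.78% were called higher. *Znf385c* fell in the 2nd class, with a median of 0.23 and 29.7% called higher. Within its own class, the fold change of *Zbtb16* exceeded that of 99.9% of 925 loci and that of *Znf385c* 97.8% of 925. Because this contrast chose both genes, their high places within a class were set in advance and support nothing. Libraries were read as single reads of 50 cycles or paired reads of 100 cycles, and the part of read type in these values was not tested.

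From OEPs to the thickened placode both genes parted. *Zbtb16* was a further 1.88-fold higher at 8-9ss (1.81 to 1.95), and ranked 144 of 8281 expressed loci, of which 3.89% were called higher and 4.99% lower. *Znf385c* was 0.833-fold its OEP level (0.802 to 0.865), which is within the 1.5-fold threshold. Between 8-9ss and 11-12ss, where 6.54% of 8529 loci were called higher and 3.63% lower, *Zbtb16* changed 1.11-fold (1.08 to 1.14) and *Znf385c* 1.07-fold (1.03 to 1.11). Both differences were smaller than the 1.16-fold of the median expressed locus at that step. Over the whole interval from 5-6ss to 11-12ss, *Zbtb16* was 2.09-fold higher (2.01 to 2.17; 7.97% of 8373 loci were called higher and 7.32% lower), while *Znf385c* was at 0.891 of its OEP level (0.858 to 0.926).

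Measured on the log2 scale, *Zbtb16* had covered 76.2% of its total difference between the PPR and the invaginating placode (4.44, or 21.8-fold) by 5-6ss. On the linear scale of normalized counts this share was 45.5%. For *Znf385c* the difference between the PPR and 11-12ss was 6.13-fold, and its OEP level was already above its level at 11-12ss. The step from the PPR to OEPs chose both genes. A large part of each difference by 5-6ss was therefore favoured in advance and supports nothing.

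Relative to the whole embryo at 3ss, a mixture of all germ layers, the genes differed before otic induction. *Znf385c* was 2.71-fold higher in the PPR than in the whole embryo (2.46 to 2.99), where it ranked 214 of 9467 loci, of which 15.7% were called higher and 12.9% lower. *Zbtb16* was at 0.754 of the whole-embryo level in the PPR (0.698 to 0.816) and was not called. In OEPs *Zbtb16* was 7.82-fold (7.28 to 8.40) and *Znf385c* 18.5-fold (16.9 to 20.4) higher than in the whole embryo, ranks 49 and 14 of 8704 loci, of which 13.9% were called higher and 10.2% lower. The gap had closed at 8-9ss, at 14.6-fold for *Zbtb16* (13.6 to 15.6) and 15.3-fold for *Znf385c* (14.0 to 16.8), with 15.0% of 8949 loci called higher and 13.1% lower. At 11-12ss *Zbtb16* was 16.1-fold (15.1 to 17.3) and *Znf385c* 16.3-fold (14.9 to 17.9) higher, with 14.7% of 9004 loci called higher and 12.8% lower. The same whole-embryo library entered each of these comparisons, and those between stages share libraries too. Both genes were chosen by their levels in OEPs and the PPR, so no comparison that uses either library is independent of that choice. As the whole embryo was of 3ss and each dissected tissue of another stage, tissue and stage cannot be told apart in these folds. In such bulk samples, fewer cells with a transcript and less transcript per cell cannot be told apart.

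**Figure D3:**
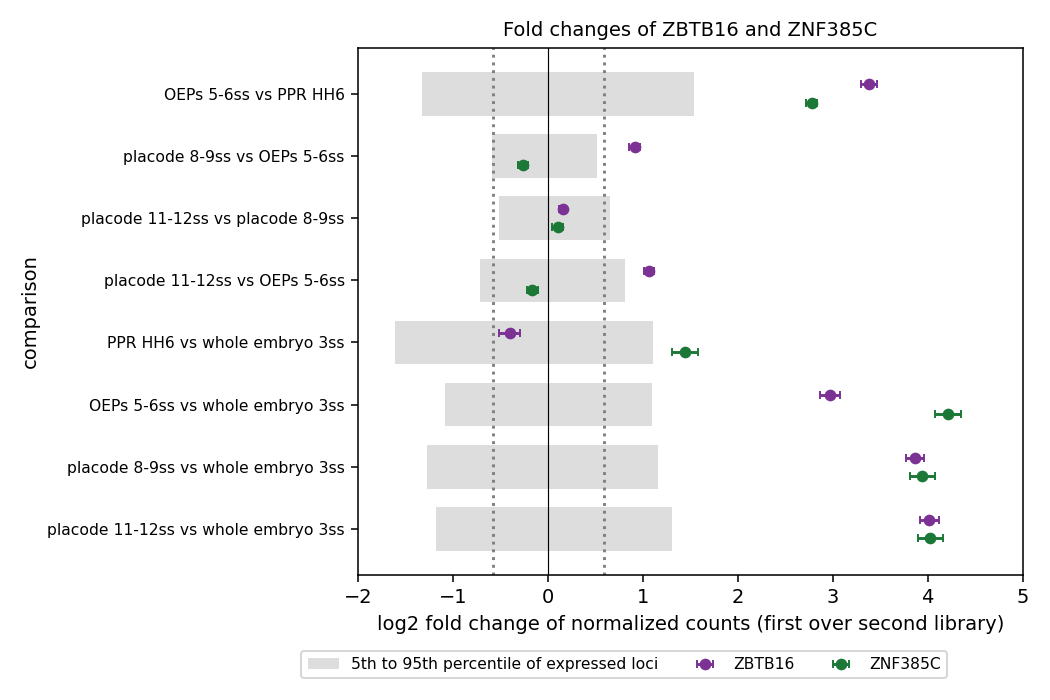
Log2 fold change of normalized counts (first over second library) for ZBTB16 and ZNF385C in 8 comparisons, with 95% counting intervals; grey bars span the 5th to 95th percentile of expressed loci and dotted lines mark 1.5-fold. Both genes lie past the grey bar in OEPs and both placode stages against the whole embryo. They also lie past it in OEPs against the PPR, the contrast that chose them. Only ZNF385C lies past it in the PPR against the whole embryo, and only ZBTB16 between OEPs and either placode stage.

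The summed normalized counts of every marker list were higher in OEPs than in the PPR, as both genes were, but the sums parted in the other libraries. Members of a list did not all follow its sum. The summed normalized counts of the 10 otic and epibranchial markers were 15354 in the PPR, 64797 in OEPs, 78633 at 8-9ss, 103088 at 11-12ss and 5833 in the whole embryo. Neural tube and hindbrain markers (4 of 9 found), of interest because *Zbtb16* is known from the developing nervous system, summed to 375 in the PPR, 571, 854 and 560 in the otic libraries in order of stage, and 1992 in the whole embryo. The sums of the other lists were higher in OEPs than in the PPR as well. Blood and vessel markers (5 of 7 found) summed to 2637 in OEPs against 224 in the PPR, mostly from *Lmo2* and *Cldn5*, and paraxial and head mesoderm markers (7 of 8 found) to 1738 against 424, mostly from *Foxc2*. Both went on to higher sums, 3001 at 8-9ss and 4713 at 11-12ss for blood and vessel (7407 in the whole embryo) and 1881 and 2625 for mesoderm (19023 in the whole embryo). *Cldn5* had 527 counts in OEPs and 4 in the PPR, but its RPKM was only 1.87 in OEPs and 0.119 in the PPR. Neural crest markers (3 of 5 found) summed to 3435 against 1610 (2317 at 8-9ss, 2937 at 11-12ss and 5156 in the whole embryo). Surface ectoderm (4 of 6) summed to 50784 against 42465 (30203 at 8-9ss, 24477 at 11-12ss and 22250 in the whole embryo). Endoderm (2 of 4) summed to 751 against 146 (125 at 8-9ss, 168 at 11-12ss and 924 in the whole embryo). Notochord (3 of 4) summed to 740 against 516 (734, 589 and 51392 in the same order). *Krt18* and *Krt19* had a higher RPKM in OEPs than in the PPR. The other surface ectoderm markers, *Grhl3* (4.91 against 14.8) and *Tfap2a* (261 against 324), had a lower one. Of the neural markers, *Dbx2* and *Hes5* were higher, *Olig2* (0.041 against 0.767) and *Nkx6-2* (0.559 against 2.32) lower. In the endoderm list, *Hhex* was lower (1.98 against 3.8). *Ttr* had 38.2 in OEPs, 0.793 in the PPR, 1.49 at 8-9ss, 0.948 at 11-12ss and 20.5 in the whole embryo. The part of these tissues in the results was not tested.

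The study names both genes with 9 further OEP factors, a list it drew from these libraries together with in situ hybridization and earlier work. At the step from the PPR to OEPs, 6 of the 9 were called higher, with a median log2 fold change of 2.66, against -0.03 over all expressed loci, of which 18.0% were called higher and 18.9% lower. As these libraries helped to make the list, its difference from all expressed loci supports nothing. The paired-box factor *Pax2* was 236-fold higher (190 to 295) and the SoxE factor *Sox8* 28.3-fold (26.2 to 30.6), both more than *Zbtb16*, though *Pax2* also guided the dissection. *Etv4*, an ETS factor that mediates FGF signals, was 7.52-fold higher (7.11 to 7.96), the Iroquois factor *Irx5* 7.10-fold (6.11 to 8.25) and the LIM homeobox factor *Lmx1a* 6.30-fold (5.78 to 6.87), near the value of *Znf385c*. *Sox13* was 1.69-fold higher (1.63 to 1.74), with a smaller difference by RPKM (76.7 in OEPs, 52.4 in the PPR). *Sall4* (1.04-fold), *Myb* (0.822, though its RPKM was 10.2 in OEPs and 8.17 in the PPR) and *Prdm1* (0.752; BLIMP-1 in the files) were not called.

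After 5-6ss, most of these factors stayed within 1.5-fold, as *Znf385c* did. From OEPs to 8-9ss 1 of the 9 was called higher, *Lmx1a* at 2.31-fold (2.16 to 2.47), where 3.89% of all expressed loci were called higher and 4.99% lower. From 8-9ss to 11-12ss *Pax2* was 1.67-fold higher (1.62 to 1.73) and *Sox13* was at 0.651 (0.631 to 0.672) of its 8-9ss level, where 6.54% of all expressed loci were called higher and 3.63% lower. Against the whole embryo, *Lmx1a* was 6.42-fold, 14.7-fold and 16.2-fold higher at the 3 otic stages, near the values of *Zbtb16* at each stage. *Irx5* and *Etv4*, which were near *Znf385c* by counts at the step to OEPs, were 1.46-fold and 1.76-fold their whole-embryo level in OEPs, against 18.5-fold for *Znf385c*. By RPKM *Irx5* differed less at the step to OEPs (37.7 in OEPs, 9.77 in the PPR) than *Znf385c* (215 and 31.1). So did *Etv4* (48.7 and 8.15) and *Lmx1a* (15.9 and 3.15).

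**Figure D4:**
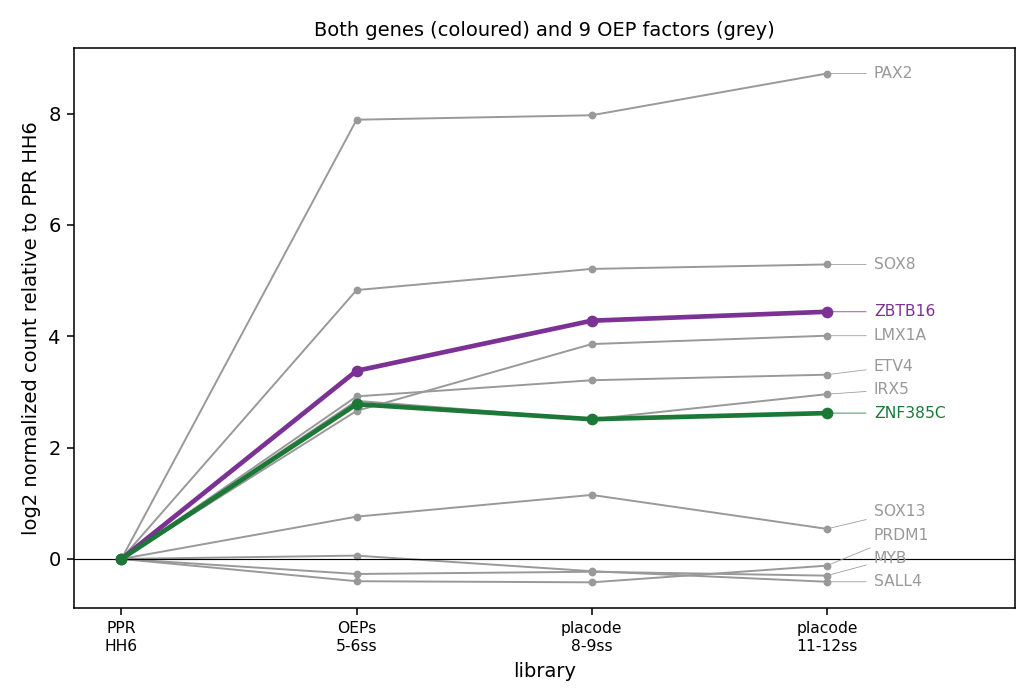
Log2 normalized count relative to the PPR (size factors over all 5 libraries) at the 4 stages for ZBTB16 and ZNF385C (coloured) and the 9 OEP factors the study names with them (grey). ZBTB16 ends at 4.44, between SOX8 (5.29) and LMX1A (4.01), and ZNF385C ends at 2.62, below IRX5 (2.96).

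The likeness of whole profiles was measured as the distance between log2(normalized count + 1) values of the 5 libraries, each centred on its own mean, over 8544 other expressed loci with a symbol. *Lmx1a* was nearest to *Zbtb16* at a distance of 0.516. Among the 6 nearest were also *Mpeg1* (0.620), a perforin-like gene of macrophages with 39 to 629 normalized counts, *Wfdc1* (0.630), which encodes a secreted WAP-domain protein, *Sptssb* (0.828), a subunit of the enzyme that starts sphingolipid synthesis, and the integrin gene *Itgb3* (0.858). Nearest to *Znf385c* were *Ass1* (0.566), an enzyme of arginine synthesis, the homeobox gene *Dlx3* (0.663), *Fa2h* (0.826), a fatty acid hydroxylase, the lymphoid zinc finger gene *Aiolos* (0.843), *Gata3* (0.885) and *Hs3st6* (0.909), which modifies heparan sulphate. *Znf385c* itself came 36th by distance from *Zbtb16* (1.71), and *Zbtb16* 34th from *Znf385c*. With 5 points a correlation separates few loci, since 179 loci reached a Pearson r of 0.97 with *Zbtb16* and 112 with *Znf385c*.

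Of 45 other genes listed for the BTB/POZ zinc finger family, 29 were found, and 23 passed the expression thresholds between the PPR and OEPs. Of these, 3 were called higher and 9 lower, with a median log2 fold change of -0.25 against -0.03 over all expressed loci, where 18.0% were called higher and 18.9% lower. *Hic1*, a tumour suppressor in humans, was 7.20-fold higher (6.27 to 8.28) on 487 counts in OEPs and 353 in the PPR, with a smaller difference by RPKM (6.99 in OEPs, 1.62 in the PPR). *Zbtb44* was at 0.227 of its PPR level (0.201 to 0.257), and *Patz1*, the most abundant family member in the PPR, at 0.567 (0.538 to 0.597). From OEPs to 8-9ss 0 of 19 family members were called higher and 2 lower, beside 3.89% higher and 4.99% lower over all expressed loci, so that the count says little about the family.

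Per length, *Zbtb16* ranked 24 of 30 family loci in the PPR and 21 in the whole embryo, but 2 in OEPs, 1 at 8-9ss and 2 at 11-12ss. It was above the family median in each otic library (34.9 against 7.73 in OEPs, 67.3 against 6.59 at 8-9ss, 76.6 against 8.50 at 11-12ss) and below it in the PPR (3.75 against 10.2) and the whole embryo (4.85 against 8.38). *Zbtb16*, unlike the other family loci, was chosen for its difference between the PPR and OEPs. Its change of rank between these libraries was therefore favoured in advance and supports nothing. The locus above it at 11-12ss was *Zbtb46*, with a deposited RPKM of 14590 on 1100 counts, against 15.9 on 991 counts at 8-9ss, so that its RPKM does not follow its counts. The locus above it in OEPs, *Zbtb8a*, had 59.0 RPKM in OEPs and 18.8 in the PPR, while by counts it was at 0.839 of its PPR level (0.771 to 0.912), so that the rank of *Zbtb16* in OEPs also rests on such a value.

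**Figure D5:**
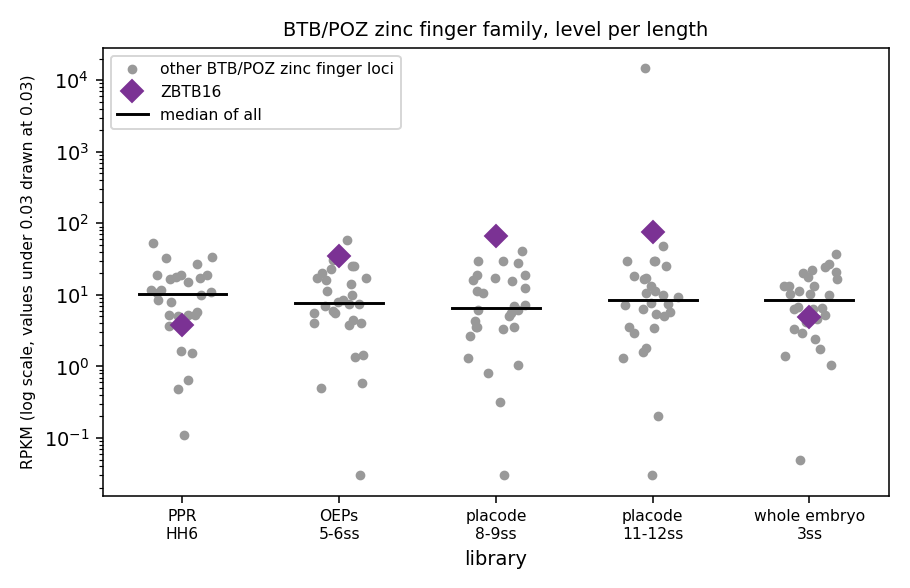
RPKM (log axis) of ZBTB16 (diamond) and 29 other BTB/POZ zinc finger loci (grey) in each library, with the median of all 30 as a line; values under 0.03 are drawn at 0.03. ZBTB16 lies below the median in the PPR and the whole embryo and far above it in the 3 otic libraries and the grey point far above it at 11-12ss is ZBTB46. ZBTB16 was chosen for its difference between the PPR and OEPs.

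The relatives of *Znf385c* had few reads. *Znf385a* had 32 to 144 counts in the 5 libraries, *Znf385b* 3 to 201 and *Znf385d* 58 to 522, and none of these loci passed the expression thresholds in any comparison. The more distant *Znf346*, which encodes a binder of double-stranded RNA, had RPKM values of 25.0 in the PPR, 32.5, 28.3 and 28.8 in the otic libraries in order of stage, and 19.8 in the whole embryo. It was called higher than in the whole embryo at each otic stage, by 1.97-fold (1.80 to 2.16), 1.74-fold (1.59 to 1.89) and 1.75-fold (1.61 to 1.91), but at no step between stages.

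Known partners of the ZBTB16 protein were compared between OEPs and the PPR. Of the 10 listed genes with a single locus, all expressed, 1 was called higher and 2 lower in OEPs than in the PPR, beside 18.0% and 18.9% of all expressed loci. The deacetylase *Hdac7* was 1.55-fold higher (1.49 to 1.60), and *Hdac4* was at 0.331 (0.290 to 0.377) of its PPR level. *Btbd6*, whose product in zebrafish directs Plzf to degradation by a Cul3 ubiquitin ligase, was at 0.502 (0.454 to 0.554), with 12.6 RPKM in OEPs and 28.9 in the PPR. The ligase gene *Cul3*, the deacetylases *Hdac1*, *Hdac2* and *Hdac3*, *Sin3a*, *Bmi1* and *Atp6ap2* were not called at this step.

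The genes beside both loci were compared at the same step, though few of them could be. In the RefSeq annotation (assembly GRCg7b, used for names and order only), ZBTB16 is a synonym of the gene listed as ZBTB32. The 3 protein-coding genes next in order on each side of each locus were taken, 12 genes in all. A locus was found for 10, of which 6 passed the expression thresholds between the PPR and OEPs, and 0 were called higher or lower, where 18.0% of all expressed loci were called higher and 18.9% lower. *Usp28* and *Rbm7* near *Zbtb16* were at 1.03-fold and 1.23-fold, and *Nkiras2* and *Kat2a* near *Znf385c* at 1.10-fold and 1.24-fold. In the same annotation each member overlaps 1 other gene model, so that reads from an overlapping transcript may be included. These overlapping models are among the 12 genes, and no locus was found for them.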

How the data were processed

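RNA of dissected chick tissue was sequenced as 1 poly(A) library per condition, with a kit that does not keep strand. The authors aligned reads to the chick genome (Ensembl Galgal4, release 71) with TopHat2 (version 2.0.7) and merged Cufflinks (version 2.1.1) assemblies into loci. The deposited counts are raw reads per locus from easyRNAseq (version 2.1.0), and the deposited RPKM values come from Cuffdiff (version 2.1.1). No locus with counts was left out before the thresholds, and counts below 3 were raised to 3 for fold changes. RPKM values were given for 18581 loci, and those without counts were not used.

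Members, gene lists and thresholds were chosen with earlier results of these data known. Named genes were both members, all OEP factors, listed genes past the thresholds at the step to OEPs or at 2 or more comparisons, the 6 nearest profiles and 3 neighbours on each side. Genes named beside these (markers, relatives, uncalled partners, Zbtb46, Zbtb8a) were chosen after their values were seen. Fold intervals are Clopper-Pearson intervals of both counts scaled by size factors. As alternatives, counts were scaled by factors from all 5 libraries, by TMM (edgeR 4.0.16, R 4.3.3) or by total count, and folds were taken from the deposited RPKM, called without the expression threshold or called past 2-fold. The work used Python 3.11.15 with scipy 1.17.1, pandas 2.3.3, numpy 2.4.6 and matplotlib 3.10.9. Promoter motifs were planned but not analysed here, 2 genes within the rule for names are not reported here, and knockdown and in situ data were not used here.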

Additional observations from a re-analysis of the deposited data

How the results depend on the processing

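Of 64 fold changes of both genes recomputed with other scalings, 60 stayed within the counting interval and none changed direction. The 4 that left it came from the deposited RPKM: *Zbtb16* was 9.30-fold higher in OEPs than in the PPR, 7.19-fold higher in OEPs than in the whole embryo and 2.20-fold higher at 11-12ss than in OEPs, and *Znf385c* was at 0.873 at 8-9ss of its level in OEPs. Ranked by correlation in place of distance, 1 of the 6 nearest profiles of *Zbtb16* (*Mpeg1*) and 0 of those of *Znf385c* were kept, so those names depend on the measure. In the PPR against the whole embryo, 54.9% of calls were higher by counts and 44.8% by RPKM. From the PPR to OEPs, 48.8% of calls were higher by counts and 56.2% by RPKM. Scaled by total counts, 48.0% in place of 57.8% were higher in OEPs and 43.5% in place of 53.3% at 8-9ss against the whole embryo. At 11-12ss against the whole embryo, the same scaling gave 47.8% in place of 53.5%.

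Background counts of loci called higher and lower moved with the thresholds. Without the expression threshold (summed count of at least 10), from the PPR to OEPs 3679 and 3339 were called in place of 1665 and 1746, from OEPs to 8-9ss 1933 and 1834 (322 and 413), from 8-9ss to 11-12ss 2328 and 1636 (558 and 310) and from OEPs to 11-12ss 2592 and 1992 (667 and 613). Against the whole embryo they were 2732 and 3525 for the PPR (1486 and 1223), 2618 and 2953 for OEPs (1213 and 885), 2961 and 3262 at 8-9ss (1342 and 1176) and 3136 and 3074 at 11-12ss (1320 and 1149). Past 2-fold, in the same order, they were 860 and 778, 121 and 117, 154 and 59, 305 and 233, 577 and 721, 522 and 485, 572 and 590, and 658 and 550. No paired analysis was possible because each condition has 1 library.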
